A study of Mus musculus with 8 samples.

Results

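The endothelial receptors and VEGF signalling genes examined here were 10 genes chosen by name, out of 54508 genes listed and 17046 tested. They comprise the ligands *Vegfa*, *Vegfb* and *Angpt1*, the receptors *Kdr*, *Flt1*, *Tek*, *Tie1* and *Eng*, and the endothelial identity genes *Pecam1* and *Cdh5*. All 10 were found in the deposited table and passed the filter on low values (a mean of at least 10 normalised counts). Their transcripts were measured by RNA sequencing of total RNA from hearts of 24-week-old C57BL/6 mice, 4 with *Rnaseh1* knocked out (RNase H1-/-) and 4 labelled wild type (RNase H1+/+). In the knockout, exon 2 of *Rnaseh1* was flanked by loxP sites and removed by Cre recombinase under the muscle creatine kinase promoter (*Ckmm-cre*), which acts in heart and skeletal muscle. The study writes its controls as floxed mice without Cre, so an effect of Cre itself cannot be told apart from the loss of RNase H1. Recombination in endothelial cells was not measured in these libraries.

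Vascular endothelial growth factors are secreted ligands that act on receptor tyrosine kinases of endothelial cells. VEGF-A drives endothelial growth and permeability through VEGFR2, the product of *Kdr*, while VEGFR1, the product of *Flt1*, binds VEGF-A tightly with little kinase output and is also the receptor of VEGF-B. Angiopoietin-1 is released by cells around the vessel and activates TIE2, the product of *Tek*, which keeps vessels quiescent and tight. In the heart, cardiomyocytes are a major source of VEGF-A and VEGF-B, and the capillary endothelium lies directly against them.

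The promoters of the VEGF ligands and of both their receptors among the members are printed because these ligands and these receptors are compared with each other directly. RefSeq windows on GRCm38.p6 matched 7 of the 10 members; *Pecam1*, *Cdh5* and *Angpt1* had no entry. All 4 genes lie on the minus strand, and the windows are chr17:46032378-46032627 for *Vegfa*, chr19:6987652-6987901 for *Vegfb*, chr5:75978459-75978705 for *Kdr* and chr5:147726012-147726261 for *Flt1*. Bases inside the gene as deposited were left out, which leaves 247 bases for *Kdr* and 250 for each of the others. Capitals mark the core of sites for ETS factors (GGAA, or TTCC on the other strand) and the core of hypoxia response elements (ACGTG or GCGTG, or CACGT and CACGC on the other strand), each read 5′ to 3′.
Vegfa: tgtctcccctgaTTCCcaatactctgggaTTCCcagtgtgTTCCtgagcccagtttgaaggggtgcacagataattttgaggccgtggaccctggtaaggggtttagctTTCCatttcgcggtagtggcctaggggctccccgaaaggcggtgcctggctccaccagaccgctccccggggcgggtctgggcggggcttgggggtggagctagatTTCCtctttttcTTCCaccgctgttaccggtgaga
Vegfb: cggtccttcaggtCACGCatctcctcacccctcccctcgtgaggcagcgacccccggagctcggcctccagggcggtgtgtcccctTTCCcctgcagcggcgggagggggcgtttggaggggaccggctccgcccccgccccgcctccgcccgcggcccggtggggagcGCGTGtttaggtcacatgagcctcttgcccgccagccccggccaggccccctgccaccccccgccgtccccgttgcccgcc
Kdr: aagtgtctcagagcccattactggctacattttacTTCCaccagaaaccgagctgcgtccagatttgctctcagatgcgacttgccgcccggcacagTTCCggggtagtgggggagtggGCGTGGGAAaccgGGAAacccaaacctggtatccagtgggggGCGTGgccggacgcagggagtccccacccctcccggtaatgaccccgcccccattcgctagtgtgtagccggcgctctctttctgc
Flt1: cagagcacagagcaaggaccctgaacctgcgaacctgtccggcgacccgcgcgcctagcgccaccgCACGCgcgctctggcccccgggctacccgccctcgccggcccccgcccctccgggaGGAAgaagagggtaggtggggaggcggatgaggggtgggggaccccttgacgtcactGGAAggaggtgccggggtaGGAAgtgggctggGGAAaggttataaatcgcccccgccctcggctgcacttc
The ETS core was present 6 times in the *Vegfa* window, 1 time in *Vegfb* and 4 times each in *Kdr* and *Flt1*. The hypoxia core was present 2 times each in *Vegfb* and *Kdr*, where 1 copy directly adjoins an ETS core, 1 time in *Flt1* and 0 times in the *Vegfa* window. Among 32851 RefSeq windows of 250 bases, 93.4% held GGAA on either strand (median 3 copies), 16.6% held ACGTG, 28.2% held GCGTG and 38.6% held at least 1 of both hypoxia cores. A match describes these letters and is not a bound site. Bases outside the windows were not searched, so a count of 0 holds for the window and not for the whole regulatory region.

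Each library held 27429878 to 30505752 counted read pairs in the knockout and 31810103 to 40715847 in wild type. Transcripts of mtDNA took 9.46% to 12.3% of the pairs in the knockout and 60.2% to 62.6% in wild type, which left 24835342 to 27146119 pairs on nuclear genes in knockout libraries and 11896021 to 16213429 in wild type libraries. The values are normalised counts, in which the authors divided the read pairs of a gene by 1 size factor per library. Between 264 and 10007 read pairs stood behind each value of a member. Principal component analysis placed 76.2% of the variance on a component that separated the genotypes, and the second component ran from -35.89 to 54.16 among the knockout libraries but only from -2.68 to 4.29 among those of wild type. Counts over the whole *Rnaseh1* gene were 182, 145, 166 and 166 in the knockout and 129, 144, 158 and 129 in wild type, so they were not lower in the knockout and give no check of the labels. Since whole hearts were sequenced, fewer cells of a type and less RNA per cell cannot be told apart.

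Of the 10 members, 1 (*Eng*) was higher and 5 (*Angpt1*, *Vegfb*, *Kdr*, *Tek* and *Tie1*) were lower in the knockout, and 4 (*Vegfa*, *Flt1*, *Pecam1* and *Cdh5*) did not pass the test (limma-trend, Benjamini-Hochberg adjusted over all 17046 genes, threshold 0.05). Calls were frequent in these hearts, with 30.7% of all tested genes higher and 28.4% lower. The groups did not overlap for 1 member above and 4 below wild type, beside 28.2% and 26.5% of all tested genes. The median log2 difference was -0.24 over the members and 0.02 over all tested genes. The falls were thus large for 2 ligands and small for the TIE receptors, while *Pecam1* and *Cdh5* stayed without a call.

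**Figure D1:**
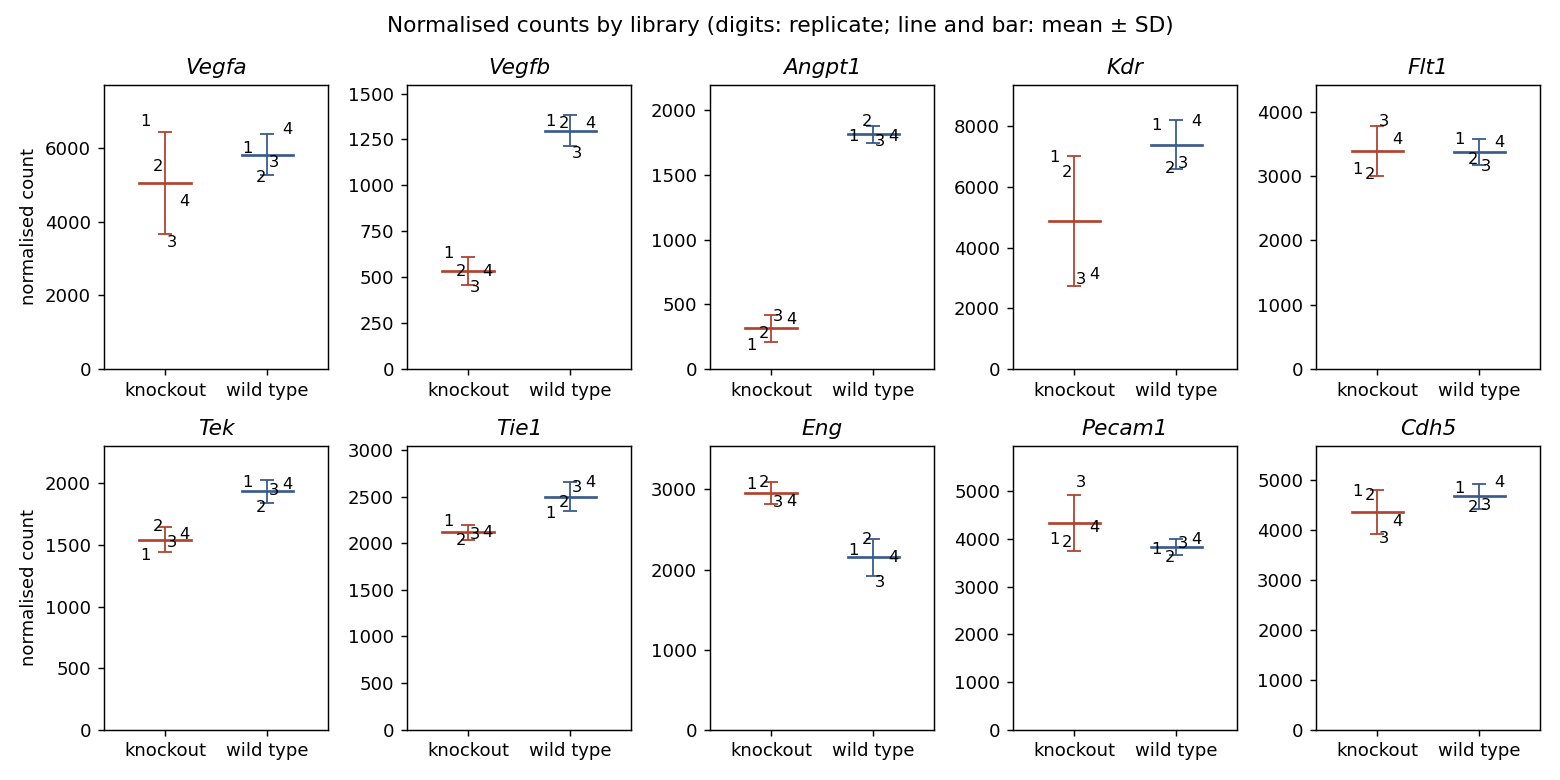
Normalised counts of the 10 members in each library (y axis, linear from 0), with knockout left of wild type. Digits give the replicate, and the line and bar the mean ± SD of 4 libraries. *Angpt1* and *Vegfb* lie far below wild type in all 4 knockout libraries, whereas *Kdr* is low in knockout replicates 3 and 4 (2962 and 3116) and close to wild type in replicates 1 and 2 (6965 and 6480).

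Among the ligands, *Angpt1* showed the deepest fall of all members. This gene (ENSMUSG00000022309, chromosome 15, 42424723 to 42676977 on the minus strand of GRCm38) had 184, 276, 408 and 383 normalised counts in knockout replicates 1 to 4, against 1795, 1909, 1758 and 1797 in wild type replicates 1 to 4. Every knockout heart lay below every wild type heart, at 10.1% to 22.5% of the wild type mean. The means were 313 ± 103 in the knockout and 1815 ± 65.1 in wild type (SD, n = 4 each), a log2 difference of -2.60 ± 0.21 (SE, limma adjusted p = 2.05e-06). The knockout hearts differed 2.22-fold among themselves, with replicate 1 lowest and replicate 3 highest, whereas the wild type hearts differed 1.09-fold.

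*Vegfb* fell to less than the lowest wild type level in every knockout heart. This ligand of VEGFR1 (ENSMUSG00000024962, chromosome 19, 6982473 to 6987651, minus strand) had 631, 532, 441 and 528 normalised counts in the knockout and 1345, 1339, 1174 and 1335 in wild type. The knockout values ran from 33.9% to 48.6% of the wild type mean, with a coefficient of variation of 14.6% in the knockout and 6.39% in wild type. Means of 533 ± 77.7 in the knockout and 1298 ± 82.9 in wild type (SD, n = 4 each) gave a log2 difference of -1.29 ± 0.10 (SE, limma adjusted p = 1.95e-06), or 0.41 times the wild type level.

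*Vegfa*, the main ligand of VEGFR2, did not pass the test. The gene (ENSMUSG00000023951, chromosome 17, 46016993 to 46032369, minus strand) had 6707, 5499, 3436 and 4539 normalised counts in the knockout and 5974, 5194, 5607 and 6509 in wild type. Knockout replicate 1 was the highest of all 8 hearts and replicates 3 and 4 the lowest, so the groups overlapped on both sides. Means were 5045 ± 1392 in the knockout and 5821 ± 559 in wild type (SD, n = 4 each), with a log2 difference of -0.24 ± 0.17 (SE, limma adjusted p = 0.242). Without knockout replicate 1 the difference was -0.40 and passed the test (limma adjusted p = 0.0344). Splice forms of *Vegfa*, which differ in how they bind heparan sulfate, are not separated by a count over the whole gene.

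The cardiomyocyte markers moved with *Angpt1* and *Vegfb*: 10 of 10 were lower in the knockout (median log2 difference -1.61), and their summed level ran from 1450595 to 1772918 normalised counts in the knockout and from 3573561 to 3704382 in wild type. Mural cell markers, which mark pericytes and smooth muscle, were higher for 3 and lower for 4 of 10, with a summed level from 88289 to 94313 in the knockout and from 72639 to 78651 in wild type. This sum was carried by *Des*, which cardiomyocytes also express; without it, an alternative added after the data were seen, 2 of 9 mural markers were higher and 4 lower, and the sum ran from 28835 to 34345 in the knockout and from 40575 to 45055 in wild type, without overlap. Much of the lower sum without *Des* lay in 1 gene, *Abcc9*, at 3731 to 5535 in the knockout and 13515 to 14251 in wild type. The sum therefore does not describe the mural markers as a set. Of all tested genes, 30.7% were higher and 28.4% lower. None of the markers of these 2 lists was at 0 in any library. Their part in the falls of *Angpt1* and *Vegfb* was not tested.

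Among the receptors, *Kdr* had the widest spread of all members among knockout hearts. The gene of VEGFR2 (ENSMUSG00000062960, chromosome 5, 75932827 to 75978458, minus strand) had 6965, 6480, 2962 and 3116 normalised counts in the knockout, against 8038, 6608, 6767 and 8139 in wild type. Replicates 1 and 2 stood at 94.3% and 87.7% of the wild type mean and replicates 3 and 4 at 40.1% and 42.2%, and 3 of the 4 knockout hearts were below the lowest wild type heart. Means of 4881 ± 2137 in the knockout and 7388 ± 812 in wild type (SD, n = 4 each) gave a log2 difference of -0.70 ± 0.26 (SE, limma adjusted p = 0.0405). The highest knockout heart had 2.35 times the lowest, against 1.23 times among wild type hearts, and 7.26% of all tested genes had a larger SD of log2 values among the knockout hearts.

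The call on *Kdr* was fragile. It was lost without knockout replicate 3 (log2 difference -0.50) or 4 (-0.52), and also without wild type replicate 1 (-0.66), 2 (-0.75), 3 (-0.74) or 4 (-0.65), each with limma. On the recovered read pairs it was -0.60 with edgeR (adjusted p = 0.0761) and -0.61 with DESeq2 (adjusted p = 0.0957). Without both knockout replicates 3 and 4, a choice made after the values were seen, the difference was -0.13 (limma adjusted p = 0.183).

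Blood-borne transcripts also differed between knockout hearts. Summed globin counts were 6052, 6460, 20812 and 18551 in knockout replicates 1 to 4 and 10443, 10950, 10265 and 12200 in wild type replicates 1 to 4. The platelet genes *Pf4*, *Ppbp* and *Itga2b* summed to 303, 330, 1284 and 610 in the knockout and 269, 436, 181 and 223 in wild type. Replicates 3 and 4 were thus high for both sums and low for *Kdr*. Of the blood and erythroid list 0 of 7 genes were called, beside 30.7% called higher and 28.4% called lower among all tested genes. None of the 7 was at 0. Their summed level ran from 6337 to 22085 in the knockout and from 10792 to 12813 in wild type. The part of blood content in the level of *Kdr* was not tested.

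*Flt1*, the gene of VEGFR1, had no call and nearly equal means in both genotypes. It lies on the same chromosome (ENSMUSG00000029648, chromosome 5, 147561604 to 147726011, minus strand) and had 3105, 3027, 3843 and 3575 normalised counts in the knockout and 3569, 3258, 3149 and 3526 in wild type. Knockout replicates 3 and 4, lowest for *Kdr*, were the highest for *Flt1*, and the range of wild type lay within that of the knockout. The means were 3388 ± 388 in the knockout and 3375 ± 204 in wild type (SD, n = 4 each), a log2 difference of 0.00 ± 0.08 (SE, limma adjusted p = 0.998). The soluble form of VEGFR1, which traps ligand, is not separated from the full receptor in these counts.

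Both genes of the TIE family were modestly lower. *Tek*, which encodes the angiopoietin receptor TIE2 (ENSMUSG00000006386, chromosome 4, 94739289 to 94874976, plus strand), had 1414, 1650, 1517 and 1587 normalised counts in the knockout and 2005, 1804, 1941 and 1994 in wild type. *Tie1*, which encodes its partner without a known angiopoietin ligand of its own (ENSMUSG00000033191, chromosome 4, 118471191 to 118490061, minus strand), had 2229, 2028, 2098 and 2115 in the knockout and 2314, 2438, 2603 and 2649 in wild type. The groups did not overlap for either gene, and the coefficient of variation was 6.56% in the knockout and 4.78% in wild type for *Tek* and 3.95% and 6.16% for *Tie1*. The log2 differences were -0.33 ± 0.07 for *Tek* (SE, limma adjusted p = 0.00139) and -0.24 ± 0.06 for *Tie1* (adjusted p = 0.00632).

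*Eng* was the only member called higher. Endoglin, its product, is a co-receptor that presents BMP9 and BMP10 to the kinase ALK1 on endothelial cells. The gene (ENSMUSG00000026814, chromosome 2, 32646595 to 32682669, plus strand) had 3067, 3084, 2835 and 2845 normalised counts in the knockout and 2237, 2378, 1839 and 2155 in wild type. Each knockout heart was above each wild type heart, and the knockout hearts differed 1.09-fold among themselves. Means of 2958 ± 136 in the knockout and 2152 ± 228 in wild type (SD, n = 4 each) gave a log2 difference of 0.46 ± 0.08 (SE, limma adjusted p = 0.000528).

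The identity genes had no call. *Pecam1*, which encodes the junctional adhesion molecule CD31 (ENSMUSG00000020717, chromosome 11, 106654217 to 106750628, minus strand), had 3999, 3925, 5181 and 4235 normalised counts in the knockout and 3772, 3620, 3909 and 4000 in wild type. *Cdh5*, which encodes VE-cadherin of the adherens junction (ENSMUSG00000031871, chromosome 8, 104101625 to 104144511, plus strand), had 4761, 4689, 3832 and 4165 in the knockout and 4832, 4436, 4485 and 4940 in wild type. Knockout replicate 3 was the highest heart for *Pecam1* and the lowest for *Cdh5*, and both genes overlapped between groups. The log2 differences were 0.17 ± 0.09 for *Pecam1* (SE, limma adjusted p = 0.108) and -0.10 ± 0.08 for *Cdh5* (adjusted p = 0.272).

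Whole hearts hold endothelium, so detection of endothelial genes is no check of the endothelial label. Every gene of the pan-endothelial list was detected in each library. Over its 26 genes, 7 of them members, the summed level ran from 58028 to 63660 normalised counts in the knockout and from 59143 to 64191 in wild type, and these ranges overlapped. Of the 19 genes that are not members, 3 were higher and 3 lower (median log2 difference 0.09), beside 30.7% and 28.4% of all tested genes. The largest rises were *Vwf*, the gene of von Willebrand factor, at 1.22 ± 0.24, and *Sox17*, a transcription factor of arterial endothelium, at 0.84 ± 0.19. *Cav1*, the structural protein of caveolae, was lower (-0.93 ± 0.15 SE, limma adjusted p = 0.000285), as was the ETS factor *Erg* (-0.32, adjusted p = 0.00367).

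How the libraries are scaled bears on the smaller changes. Scaling to equal nuclear totals shifted the median gene by 0.2275 and scaling to equal library totals by 1.4264 on the log2 scale. Under equal nuclear totals *Kdr* was at -0.47, *Tek* at -0.10 and *Tie1* at -0.01, all without a call, and *Flt1* (0.23) and *Pecam1* (0.40) were called higher, while *Eng* (0.69), *Vegfb* (-1.06) and *Angpt1* (-2.37) kept theirs. Under equal library totals *Kdr* (0.74), *Tek* (1.11), *Tie1* (1.20) and *Vegfb* (0.15) turned positive, and *Angpt1* stayed lower. The share of higher genes among all calls was 52.0% under the size factors of the authors, 69.2% under equal nuclear totals and 96.3% under equal library totals. When the median gene was set back to its place, an alternative added after the data were seen, all 10 members had the calls given above under both scalings. That step restores the median difference of the main fit by design, so the return of the calls is no separate support for them. Differences given for other genes move by the shifts of the median gene given above.

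**Figure D2:**
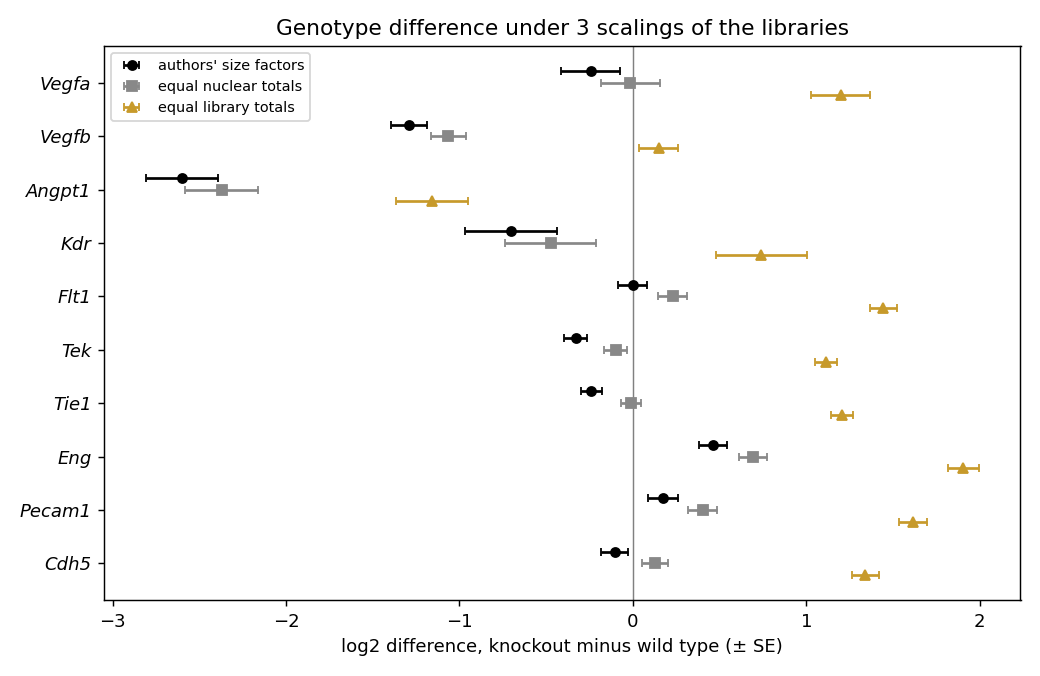
Log2 difference between knockout and wild type (x axis, ± SE) for each member under the authors' size factors (circles), equal nuclear totals (squares) and equal library totals (triangles). Each gene keeps its place relative to the others, and only *Angpt1* is lower and only *Eng*, *Pecam1* and *Flt1* are at or above 0 under all 3; *Vegfb*, *Kdr*, *Tek*, *Tie1* and *Vegfa* turn positive with equal library totals, and *Cdh5* under both of the other scalings.

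Ratios between members within a library do not depend on this scaling. For 11 pairs the log2 ratio was compared by an exact two-sided permutation test over the 70 assignments of the 8 libraries, whose smallest p is 0.0286, with adjustment over the 11 pairs. In 5 pairs the groups did not overlap and reached that p (adjusted p = 0.0629 each), so no ratio passed the threshold of 0.05 after adjustment. A pair at the smallest p could not pass on its own after adjustment over 11 pairs, however far apart its groups lay. The lack of a call therefore says little about the size of a difference.

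The ligand-to-receptor ratio differed most for the angiopoietin pair. *Angpt1*/*Tek* was -2.94, -2.58, -1.89 and -2.05 on the log2 scale in the knockout and -0.16, 0.08, -0.14 and -0.15 in wild type, a difference of -2.27 (exact permutation p = 0.0286). *Vegfb*/*Flt1* averaged -2.67 ± 0.35 in the knockout and -1.38 ± 0.06 in wild type (SD, n = 4 each), a difference of -1.29 (exact permutation p = 0.0286). *Vegfa*/*Kdr* moved the other way, at 0.12 ± 0.34 in the knockout and -0.34 ± 0.07 in wild type (difference 0.46, exact permutation p = 0.0286, n = 4 each). For *Angpt1* and *Vegfb* each knockout heart had less ligand transcript per receptor transcript than any wild type heart, and for *Vegfa* each had more. The separation for *Vegfa*/*Kdr* was narrow, with the lowest knockout heart at -0.24 and the highest wild type heart at -0.27. Its knockout values in replicates 1 to 4 were -0.05, -0.24, 0.21 and 0.54, highest in the hearts with low *Kdr*.

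Between the ligands, *Vegfa*/*Vegfb* was 3.21 ± 0.21 in the knockout and 2.16 ± 0.15 in wild type (difference 1.05, exact permutation p = 0.0286, n = 4 each). *Tek* relative to *Pecam1* was at -1.48 ± 0.22 in the knockout and -0.98 ± 0.05 in wild type (difference -0.50, exact permutation p = 0.0286, n = 4 each). *Pecam1* itself had a log2 difference of 0.17 without a call, and *Tek* was not set against *Cdh5*, the other identity gene. *Flt1*/*Kdr* was -1.17, -1.10, 0.38 and 0.20 in the knockout and -1.17, -1.02, -1.10 and -1.21 in wild type. Here knockout replicates 1 and 2 fell among the wild type hearts and replicates 3 and 4 far above them (exact permutation p = 0.200, adjusted p = 0.220).

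*Kdr*/*Pecam1* was 0.80, 0.72, -0.81 and -0.44 in the knockout and 1.09, 0.87, 0.79 and 1.02 in wild type (difference -0.88, exact permutation p = 0.0571, adjusted p = 0.0898), with the same hearts low. Differences in the other pairs were -0.17 for *Flt1*/*Pecam1* (exact permutation p = 0.0571), 0.29 for *Eng*/*Pecam1* (p = 0.114), -0.28 for *Cdh5*/*Pecam1* (p = 0.143) and -0.09 for *Tek*/*Tie1* (p = 0.371), and their groups overlapped.

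**Figure D3:**
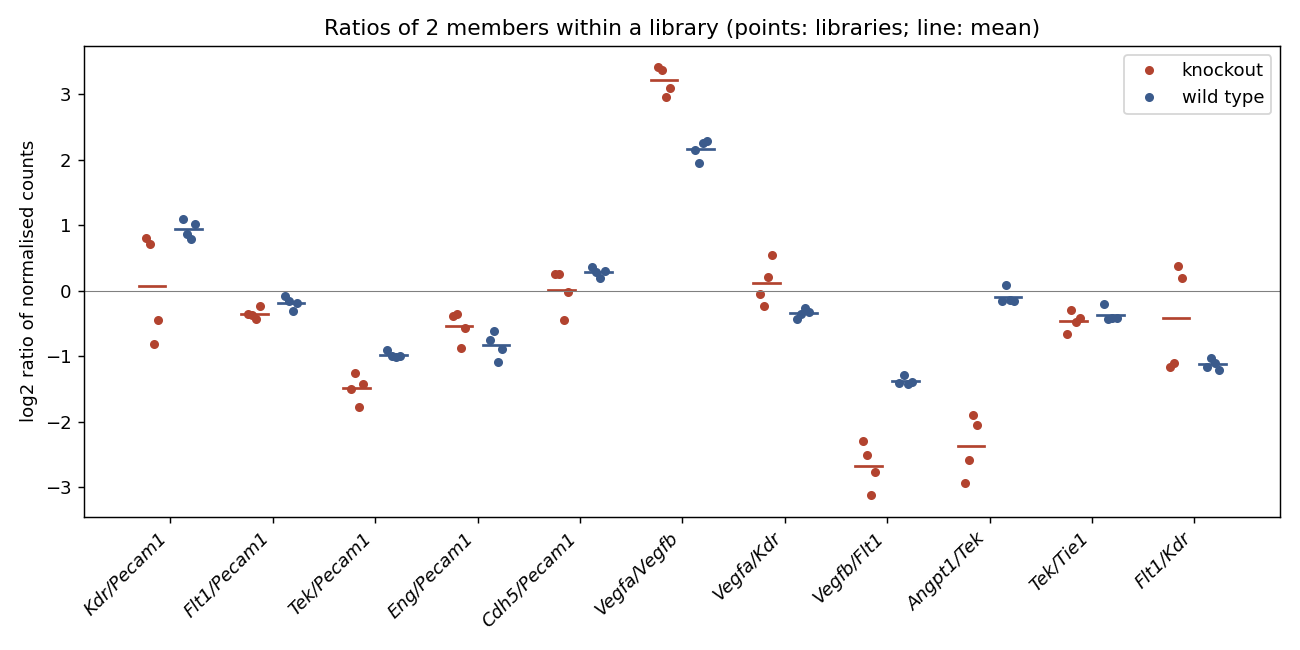
Log2 ratio of normalised counts for 11 pairs of members in each library (y axis), knockout (red) left of wild type (blue), with a line at the mean of 4 libraries. *Angpt1*/*Tek*, *Vegfb*/*Flt1* and *Tek*/*Pecam1* lie below wild type and *Vegfa*/*Vegfb* and *Vegfa*/*Kdr* above it without overlap, and *Flt1*/*Kdr* has knockout replicates 1 and 2 among the wild type libraries and replicates 3 and 4 above 0.

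Levels of different genes were set side by side per kilobase of merged exons. *Vegfa* was the most abundant member in both genotypes, at 1177 ± 325 normalised counts per kb in the knockout and 1358 ± 130 in wild type (SD, n = 4 each), followed by *Cdh5* at 1038 ± 105 and 1112 ± 59.5. In knockout hearts the order then ran *Eng* (731), *Pecam1* (696), *Kdr* (540), *Tie1* (431), *Vegfb* (332), *Tek* (327), *Flt1* (251) and *Angpt1* (60.1). The ranges of neighbours overlapped from *Vegfa* to *Cdh5*, from *Eng* through *Tie1*, and between *Vegfb* and *Tek*. In wild type hearts the order after *Cdh5* was *Kdr* (818), *Vegfb* (809), *Pecam1* (614), *Eng* (532), *Tie1* (509), *Tek* (411), *Angpt1* (349) and *Flt1* (250). There the ranges overlapped between *Kdr* and *Vegfb* and from *Pecam1* through *Tie1*. *Angpt1* thus stood below *Flt1* per kb in the knockout and above it in wild type, and *Eng* overlapped with *Kdr* in the knockout and stood below it in wild type.

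The spread among knockout hearts exceeded that among wild type hearts for 80.0% of the members. The median SD of log2 values was 0.17 in the knockout and 0.09 in wild type over the members, 0.12 and 0.07 over the 3517 genes with a mean of at least 1000 normalised counts, and 0.20 and 0.14 over all tested genes. A larger spread in the knockout was found for 78.4% of those 3517 genes and 61.7% of all tested genes. *Kdr* (SD of log2 values 0.66), *Angpt1* (0.53) and *Vegfa* (0.41) were the members with the widest spread in the knockout. The knockout hearts did not share 1 order over the members: replicate 3 was lowest for *Kdr*, *Vegfa*, *Vegfb*, *Cdh5* and *Eng* and highest for *Angpt1*, *Flt1* and *Pecam1*.

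**Figure D4:**
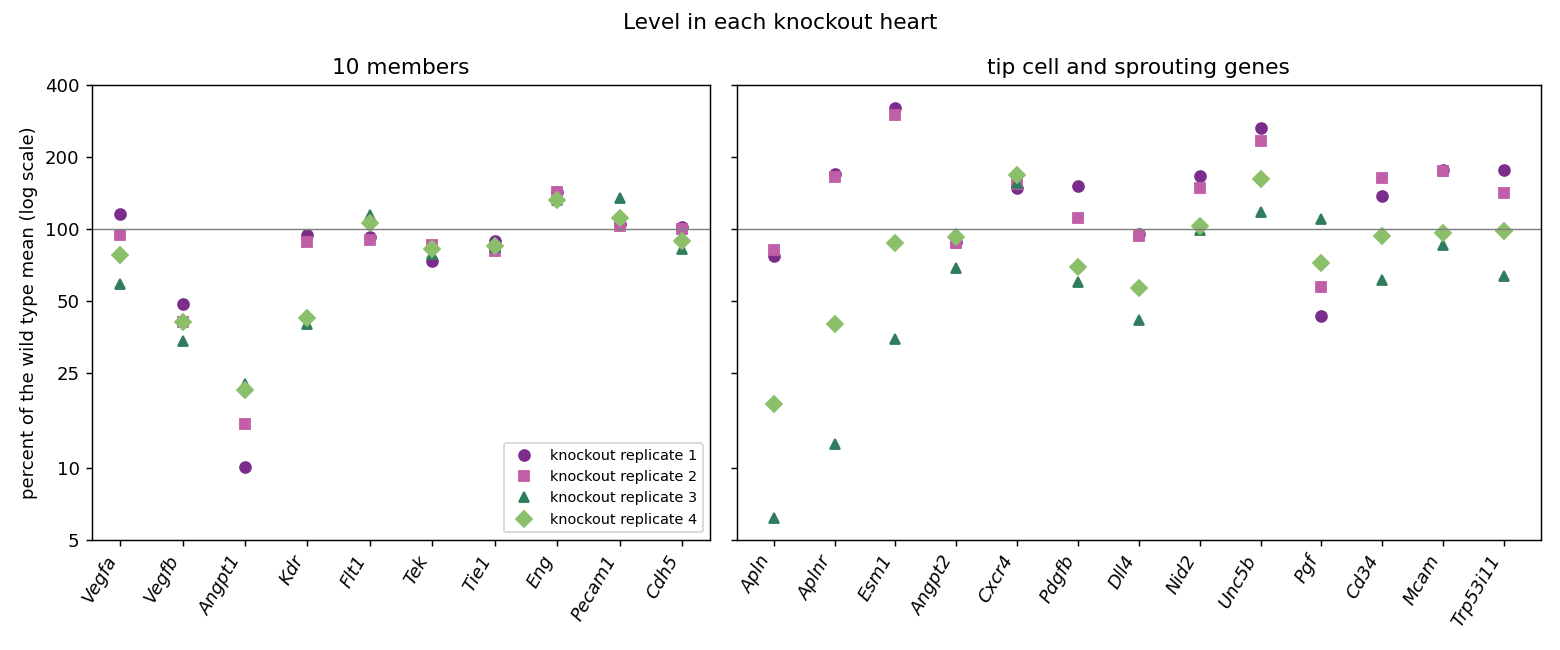
Level in each knockout heart as a percentage of the wild type mean (y axis, log scale), for the 10 members (left) and for the tip cell and sprouting genes (right). *Kdr* is near 90% of the wild type mean in replicates 1 and 2 and near 40% in replicates 3 and 4, and *Apln*, *Aplnr* and *Esm1* are spread more widely in the same direction.

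Genes known from sprouting vessels had the largest median spread of the endothelial lists among knockout hearts. That median SD of log2 values over 13 tip cell and sprouting genes was 0.59 in the knockout and 0.10 in wild type. *Apln*, the gene of the peptide apelin, had 294, 310, 23.5 and 70.6 normalised counts in the knockout and 374, 309, 423 and 418 in wild type. Its receptor gene *Aplnr* had 1982, 1925, 148 and 470 in the knockout and 1303, 1012, 1182 and 1209 in wild type. Knockout replicates 3 and 4 were below every wild type heart for both genes, and replicates 1 and 2 were above every wild type heart for *Aplnr*. The same hearts lay apart on the second principal component over all tested genes.

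*Esm1*, a secreted proteoglycan of tip cells, had 108, 101, 11.7 and 29.6 in the knockout and 33.1, 35.7, 35.5 and 31.1 in wild type, again high in replicates 1 and 2 and low in 3 and 4. *Apln*, *Aplnr* and *Esm1* were chosen after their values were seen, and only *Apln* passed the test (log2 difference -1.75 ± 0.68, limma adjusted p = 0.0472), with overlapping groups. Of the whole list 2 of 13 genes were higher and 1 lower (median 0.09), beside 30.7% and 28.4% of all tested genes. The higher ones were *Cxcr4*, a chemokine receptor, at 0.64 ± 0.10 with little spread among the knockout hearts, and the netrin receptor *Unc5b* at 0.89 ± 0.21.

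Among 11418 tested genes with a mean of at least 100 normalised counts, those whose pattern over the 8 libraries was most like that of *Kdr* were *Tmem132a*, *S1pr3*, *Sox7*, *Arhgef15* and *Usp28*. Likeness was the root mean square difference of log2 values relative to each gene's wild type mean, and it was 0.11 for *Tmem132a*, 0.15 for *S1pr3* and 0.16 for the other 3. *S1pr3*, a receptor of sphingosine-1-phosphate, had 805, 753, 264 and 395 normalised counts in the knockout and 857, 747, 820 and 844 in wild type. *Sox7*, an endothelial transcription factor gene, had 305, 290, 130 and 182 in the knockout and 436, 347, 345 and 401 in wild type. For *Vegfa* the nearest genes were *Zfp710* (0.09), *Ntng2* (0.10), *Snapc1* (0.10), *Rnf144a* (0.11) and *Olfr558* (0.11).

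In the rest of the VEGF family, 1 of 6 genes that are not members was higher and 1 lower, beside 30.7% and 28.4% of all tested genes. *Vegfd*, a ligand of the lymphatic receptor VEGFR3, had 91.9, 112, 164 and 156 normalised counts in the knockout and 54.1, 55.4, 38.6 and 65.6 in wild type (log2 difference 1.26 ± 0.22, limma adjusted p = 0.000687). *Nrp1*, a co-receptor that holds VEGF-A to VEGFR2, had 4532, 4694, 3018 and 3981 in the knockout and 5994, 5531, 5692 and 5969 in wild type (-0.53 ± 0.12, limma adjusted p = 0.00308). The groups did not overlap for either gene. *Vegfc* (-0.20), *Pgf* (-0.56), *Flt4* (0.14) and *Nrp2* (-0.49) did not pass the test.

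In the angiopoietin and TIE system, the ligands differed in direction. *Angpt4*, a further angiopoietin, had 52.9, 53.2, 61.3 and 75.7 normalised counts in the knockout and 13.5, 13.6, 15.4 and 6.91 in wild type (2.25 ± 0.27, limma adjusted p = 4.44e-05). *Svep1*, an extracellular protein known to bind TIE1, had 8400, 8746, 5113 and 6898 in the knockout and 1018, 998, 1048 and 1117 in wild type (2.77 ± 0.14, adjusted p = 8.84e-08). Both were higher in every knockout heart, opposite to *Angpt1*. *Angpt2*, the antagonist made by endothelial cells (-0.25 ± 0.14), and *Ptprb*, the phosphatase that dampens TIE2 (-0.03 ± 0.10), had no call.

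Around endoglin, 8 of 18 listed genes other than *Eng* were higher and 4 lower (median log2 difference 0.32), beside 30.7% and 28.4% of all tested genes. The list was drawn up for the BMP9 and BMP10 pathway, and *Gdf2*, the gene of BMP9, did not pass the filter on low values. *Id2* (1.33 ± 0.14), *Smad6* (1.29 ± 0.10) and *Id3* (0.76 ± 0.08) were the largest rises. *Id1*, named outside the rule for lists, was higher by only 0.31 (limma adjusted p = 0.0146). The type II receptor genes *Acvr2b* (-1.15 ± 0.13) and *Acvr2a* (-0.74), and *Smad9* (-0.40), were the deepest falls. *Bmp10*, the gene of the atrial ligand, ranged from 4274 to 7485 normalised counts in the knockout and from 884 to 6498 in wild type and did not pass the test. Nor did the receptor genes *Acvrl1*, which encodes ALK1 (0.12), and *Bmpr2* (0.15). The higher genes of the list include the TGF-beta receptor genes *Tgfbr1* (0.70) and *Tgfbr2* (0.57), named outside the rule for lists.

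Downstream of VEGFR2, 10 of 28 tested genes were higher and 13 lower, beside 30.7% and 28.4% of all tested genes. The median was 0.02, equal to that of all tested genes. *Rcan1*, a calcineurin regulator that VEGF induces in cultured human endothelial cells, had 8833, 7258, 2657 and 4230 normalised counts in the knockout and 1639, 1204, 1577 and 1815 in wild type (1.75 ± 0.32, limma adjusted p = 0.000773). All knockout hearts were above wild type, and replicates 3 and 4 were the lowest of them. The kinase genes *Prkcb* and *Src* (0.92) were also higher, and *Pik3r1* (-1.24) and *Grb2* (-1.22) were the deepest falls. These genes serve many receptors in all cells of the heart.

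Of the VEGF antagonists and vessel inhibitors, 7 of 14 were higher and 2 lower (median 0.48), beside 30.7% and 28.4% of all tested genes. *Thbs1*, the gene of thrombospondin-1, had 3301, 3615, 6796 and 5130 normalised counts in the knockout and 1096, 1097, 967 and 777 in wild type (2.21 ± 0.21, limma adjusted p = 6.83e-06). *Serpinf1*, which encodes the vessel inhibitor PEDF, was higher by 1.69 ± 0.08 and the protease gene *Adamts1* by 1.38 ± 0.14. Lower were *Sema3a*, a semaphorin that binds neuropilin-1 (-1.04), and *Spry2*, an inhibitor of receptor tyrosine kinase signalling (-0.34). Other semaphorin, Sprouty and Spred genes of the list did not fall with them. *Sema3f* (0.98), *Spry1* (0.61) and *Spred1* (0.56), named outside the rule for lists, were called higher, and *Spry4* (-0.07) had no call. Fibroblast markers moved with this list: 6 of 10 were higher and 1 lower, with a summed level from 99996 to 125774 in the knockout and from 54403 to 57806 in wild type, none at 0, and their part was not tested.

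Among regulators and targets of the hypoxia-inducible factors, which control *Vegfa* in low oxygen, 10 of 24 tested genes were higher and 6 lower (median 0.22). Over all tested genes, 30.7% were higher and 28.4% lower. *Hif1a* had 9864, 10137, 7675 and 9734 normalised counts in the knockout and 2753, 2625, 2971 and 2851 in wild type (1.73 ± 0.09, limma adjusted p = 7.51e-08). The target *Slc2a1*, a glucose transporter gene, had 3111, 2444, 1327 and 1703 in the knockout and 275, 296, 386 and 371 in wild type (2.63 ± 0.23), and *Ero1l*, an oxidase of protein folding, was higher by 2.60 ± 0.18. *Slc2a1* was called higher and *Vegfa* was not, and both had their highest level in knockout replicate 1 and their lowest knockout level in replicate 3; the difference between the 2 genes was not tested. The oxygen sensor gene *Egln1* (-1.44 ± 0.05), *Ankrd37* (-1.12) and *Hif1an* (-0.80) were the deepest falls. The other genes called lower, named outside the rule for lists, were *Epas1*, *Higd1a* (-0.56) and *Pdk1* (-0.36). *Epas1*, which encodes another of these factors, averaged 3124 in the knockout and 5230 in wild type (-0.74 ± 0.08, limma adjusted p = 2.64e-05).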

How the data were processed

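Total RNA of 4 knockout and 4 wild type mouse hearts (24 weeks of age) was sequenced as paired-end TruSeq libraries. Sample labels gave the groups and replicate numbers, and by the study each group was made up of 4 animals. Spread between these samples is all that the p-values take into account. Read pairs were aligned by the authors to mm10 (GRCm38) using HISAT2 2.10 and counted per gene and by strand with featureCounts 1.6.3 (versions from the study and the submitters' processing notes). What was deposited is a signal, in which the authors scaled the count of each gene by a size factor for the library, estimated with DESeq2 1.18.1 under R 3.5.1. The sheet with the authors' own comparison (fold changes, their errors and p-values) was not used. Read pairs were recovered from the steps of the deposited values, and 100% of the values came out whole within a tolerance of 0.01. A repeated block of mtDNA rows was skipped, and 22980 of the 54508 listed genes were without any read.

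The genotypes were compared gene by gene in a limma-trend fit (limma 3.58.1, R 4.3.3) to log2(normalised count + 1), two-sided and with no term other than genotype, over the 17046 genes that averaged 10 or more normalised counts. The study used DESeq2 on raw counts, and a normalised unit needs a log scale. The pseudocount of 1 understates changes of low genes. Adjustment followed Benjamini and Hochberg over all genes tested, with a threshold of 0.05. On the recovered read pairs edgeR 4.0.16 (quasi-likelihood, TMM) called 5237 genes higher and 4786 lower, beside 5241 and 4839 with limma. Differences are knockout minus wild type. Ratios within a library were compared by exact permutation. Scripts were tested on simulated data. All pairs of libraries within a group differed by more than sampling noise.

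The members and lists were chosen with earlier results of these data known. All members were named. In each list up to 3 genes with the largest and up to 3 with the lowest difference were named, among genes past the threshold whose groups did not overlap; some of these are not reported here. Genes named outside this rule are marked so, or had no call, or entered a summed level. Exonic lengths came from GENCODE M21, in which 53548 of 54495 nuclear identifiers had the deposited position. Alternatives were other pseudocounts (0.5 and 5), no filter, other scalings, edgeR, DESeq2 1.42.0, a replicate block and leaving out each library, and, added after seeing the data, leaving out knockout replicates 3 and 4 and setting the median gene back.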

Additional observations from a re-analysis of the deposited data

Results flagged for a closer look

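Of 42 groups of 4 libraries examined for the members and their ratios, 5 held a library that stood far from the others by Dixon's test, where chance alone flags about 5% of groups. All 5 were wild type. Wild type replicate 3 was the lowest for *Vegfb*, with 1174 normalised counts. Wild type replicate 1 was the highest for the log2 ratio *Tek*/*Pecam1*, at -0.91, and for *Tek*/*Tie1*, at -0.21. Wild type replicate 2 was the highest for *Vegfb*/*Flt1*, at -1.28, and for *Angpt1*/*Tek*, at 0.08. The direction of the difference of *Vegfb* and of these 4 ratios did not change when the library in question was left out.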

How the results depend on the processing

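The calls on *Angpt1* and *Eng* held under all 19 alternatives. With equal library totals *Kdr* (0.74), *Tek* (1.11), *Tie1* (1.20) and *Vegfb* (0.15) reversed, *Flt1* (1.44), *Pecam1* (1.62), *Cdh5* (1.34) and *Vegfa* (1.20) were called higher, and 14952 genes were higher and 567 lower. With equal nuclear totals *Kdr* (-0.47), *Tek* (-0.10) and *Tie1* (-0.01) lost their calls, and *Flt1* (0.23) and *Pecam1* (0.40) were called higher. Equal library totals count the mtDNA reads, which filled most of each wild type library, and equal nuclear totals leave those reads out. Once the median gene was set back, the calls of all members were as under the authors' size factors. That step restores the median difference of the main fit by design, so it is no separate support for the calls. *Kdr* also lost its call with edgeR (-0.60) and DESeq2 (-0.61), on leaving out a library (-0.91 to -0.50, lost without 6 of the 8), and without knockout replicates 3 and 4 (-0.13). *Vegfa* ran from -0.40 to -0.07 on leaving out a library and was called lower without knockout replicate 1. No ratio changed its call or direction with another pseudocount. Leaving out a library kept the direction of every ratio, and no p-value is given for those settings. Some uncalled ratios moved by more than 1.5 times: *Kdr*/*Pecam1* to -0.58, *Flt1*/*Kdr* to 0.44 and *Cdh5*/*Pecam1* to -0.13 without knockout replicate 3, and *Tek*/*Tie1* to -0.02 without knockout replicate 1, -0.14 without knockout replicate 2 and -0.04 without wild type replicate 1.

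The replicate numbers share only a number: same-numbered libraries deviated from their group means with correlations of 0.040, -0.070, 0.008 and -0.040. With the replicate block 5076 genes were higher and 4645 lower, and *Kdr* (-0.70) and the other members kept their calls. The size of the groups, 4 against 4 libraries, and the use of whole hearts limit what small differences such as those of *Pecam1* and *Cdh5* can show.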

Other observations

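Genes of activated endothelium were higher for 8 of 10 and lower for 2, beside 30.7% and 28.4% of all tested genes. Their median log2 difference was 1.18, beside 0.02 over all tested genes. *Selp*, the adhesion receptor P-selectin, which platelets also carry, had 136, 118, 548 and 366 normalised counts in the knockout and 12.0, 13.6, 10.8 and 8.63 in wild type (4.30 ± 0.44 SE, limma adjusted p = 1.34e-05). *Procr*, the endothelial receptor of protein C, had 55.7, 69.3, 132 and 105 in the knockout and 19.5, 19.7, 15.4 and 39.7 in wild type (1.91 ± 0.34, limma adjusted p = 0.000662). *Ccl2*, a chemokine that draws monocytes, had 206, 221, 229 and 170 in the knockout and 51.1, 49.3, 58.7 and 67.3 in wild type (1.85 ± 0.15, limma adjusted p = 2.08e-06). All 3 were above wild type in every knockout heart. *Nos3*, the endothelial nitric oxide synthase, was lower (-0.31 ± 0.08, limma adjusted p = 0.00723). Macrophage markers were higher for 9 of 10, with a summed level from 16242 to 19398 in the knockout and from 5696 to 6412 in wild type and none at 0, and their part in these rises was not tested.

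Of the capillary lipid-handling genes 1 of 12 was higher and 5 were lower (median -0.45), beside 30.7% and 28.4% of all tested genes. *Gpihbp1*, which carries lipoprotein lipase across the capillary wall, had 1408, 1257, 2457 and 1640 in the knockout and 980, 959, 1225 and 1146 in wild type (0.61 ± 0.18, limma adjusted p = 0.0142). *Lpl*, the lipase itself, made by cardiomyocytes, had 18090, 21176, 32785 and 27621 in the knockout and 70440, 70306, 70606 and 75132 in wild type (-1.56 ± 0.16, limma adjusted p = 1.04e-05). *Timp4*, chosen after its values were seen, had 64.0, 59.9, 1000 and 968 in the knockout and 591, 462, 680 and 492 in wild type and did not pass the test. Among venous, endocardial and lymphatic genes, *Plvap*, the diaphragm protein of fenestrated endothelium, was higher (1.89 ± 0.18) and *Prox1*, which lymphatic endothelium and cardiomyocytes express, was lower (-1.30).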
